A study of Mus musculus with 5 samples.

Results

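The genes described here encode proteins that restore or carry the ion currents of the muscle fiber membrane. They are Atp1b1, Atp1b2 and Atp1b4, 3 β-subunit genes of the Na,K-ATPase family, Fxyd1, which encodes the pump regulator phospholemman, Scn4a, which encodes the muscle voltage-gated sodium channel Nav1.4, and Clcn1, which encodes the muscle chloride channel ClC-1. They were taken from the table by gene name, and all 6 are among its 17015 genes. RNA from tibialis anterior (TA), a fast-twitch muscle, of sedentary male mice aged 8 weeks was sequenced in 3 libraries labelled WT control (Ctrl) and 2 labelled skmNrip1-/- (Nrip1KO). The study's design has an n of 3 in each group, but the table used here holds columns for only these 2 skmNrip1-/- samples. The remaining skmNrip1-/- sample was therefore not analysed here. In skmNrip1-/- mice, an exon of Nrip1 flanked by loxP sites (a C57BL/6J line) is deleted by Cre recombinase under the myogenin promoter (a C57BL/6JN line), which is active in differentiating and mature skeletal muscle, so other cells of the tissue keep the gene. Controls were littermates without Cre, so the presence of Cre cannot be told apart from the deletion. Nrip1 encodes RIP140, a transcriptional coregulator of nuclear receptors.

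Each action potential lets sodium into the fiber through Nav1.4 and potassium out, and the Na,K-ATPase pumps both back. A pump consists of a catalytic α subunit and a β subunit that carries it to the membrane and sets its affinity for ions, and FXYD proteins tune it further. ClC-1 carries most of the resting membrane conductance of a muscle fiber, which steadies the membrane between action potentials. Loss of ClC-1 function causes myotonia congenita, and mutations of Nav1.4 cause periodic paralysis and paramyotonia.

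In these libraries, the whole-gene value of the targeted gene did not go the way of its label. Nrip1 (ENSMUSG00000048490) measured 4.64, 7.69 and 6.55 FPKM in the WT control libraries (replicates 1, 2 and 3, the order used throughout) and 25.3 and 22.5 FPKM in the libraries labelled skmNrip1-/- (replicates 1 and 2), with a log2 fold change of 1.94 (SE 0.21, adjusted p = 0.0261, limma). The call was lost without WT control replicate 3 (adjusted p = 0.114) or without either library labelled skmNrip1-/- (adjusted p = 0.189 and 0.143). FPKM are sequenced fragments per kilobase of transcript, scaled to the size of the library. The table holds 1 value per gene, so the deleted exon cannot be separated from the rest, and every direction below rests on the labels. By the study's methods, that exon holds both the start and the stop codon, so the whole coding sequence lies in it. The reason for the higher whole-gene value was not tested. The study also measured Nrip1 expression and, by western blot, RIP140 protein in gastrocnemius and heart of this line, which are not part of these data. The skeletal muscle marker Acta1 was at 14369 FPKM or more in all 5 libraries, and the leukocyte markers Ptprc and Cd3e were under 1 FPKM, while the macrophage marker Cd68 reached 1.95 FPKM. Depth relative to WT control replicate 1, estimated coarsely from the steps between low values, was between 0.817 and 1.15. Mitochondrially encoded genes held 45.4% to 50.7% of the summed FPKM in WT control TA and 58.6% and 60.9% in the libraries labelled skmNrip1-/-. The summed FPKM was 969144 to 1144714 in WT control TA and 1288038 and 1286254 in the libraries labelled skmNrip1-/-, so rescaling to 1 sum lowers the latter. Counts are not in the table, so the absolute depth is unknown. In a whole muscle, fewer cells of a type and less RNA per cell cannot be told apart.

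None of the 6 genes passed the test, which was limma on log2(FPKM + 0.1) over the 12148 genes whose mean reached 0.5 FPKM. Called here means a 1.2-fold change or more with an adjusted p not above 0.05. Across those genes, 0.370% were called higher and 0.0823% lower in the libraries labelled skmNrip1-/-. All 6 genes passed the FPKM minimum. At an unadjusted p of 0.05 or less, 0 of the 6 were higher, against 6.57% of all genes tested, and 1 was lower, Atp1b2, against 5.33%. Both libraries labelled skmNrip1-/- lay above every WT control library for Atp1b1, a pattern of 15.8% of the genes tested, and below every one for Atp1b2, a pattern of 14.4%. The other 4 genes had libraries that overlapped. For a single gene, 3 libraries against 2 allow 10 arrangements. The exact two-sided permutation test, which as run doubles the smaller p of a rise and a fall, cannot give a p below 0.2.

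**Figure D1:**
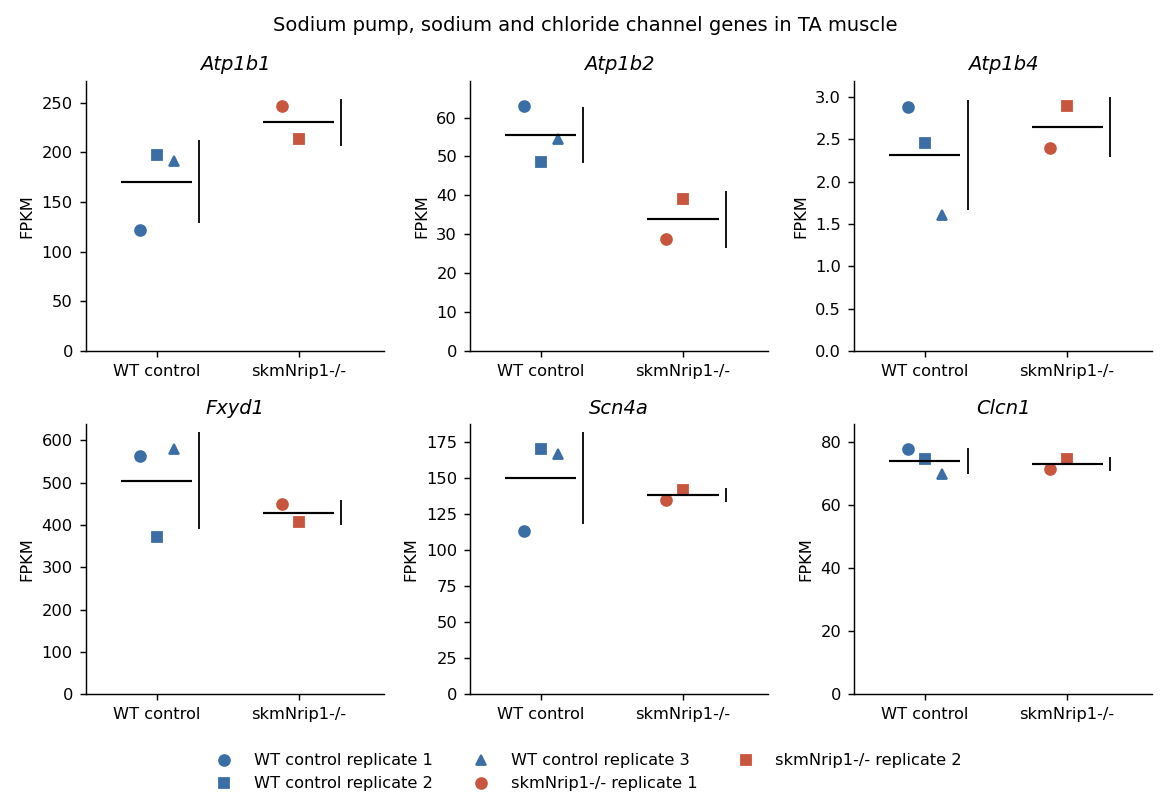
FPKM (vertical axes, each from 0) of the 6 genes in WT control (blue, 3 libraries) and in libraries labelled skmNrip1-/- (red, 2 libraries) of TA muscle, with replicates by symbol, horizontal lines at group means and vertical bars of 1 SD to either side. Atp1b1 (247 and 214 FPKM against at most 198) and Atp1b2 (28.7 and 39.0 against at least 48.7) show groups that do not overlap, and the other 4 panels show groups that do.

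Since FPKM are scaled by transcript length, levels can be set side by side, but the lengths used are not given in the sources used here. Annotated transcripts are 255 to 668 nucleotides long for Fxyd1 and 443 to 6598 for Scn4a, so the order below rests on those unknown lengths. In WT control TA, Fxyd1 was the most abundant of the 6 (373 to 579 FPKM), followed by Atp1b1 (122 to 198), Scn4a (114 to 170), Clcn1 (69.8 to 77.9), Atp1b2 (48.7 to 63.1) and Atp1b4 (1.61 to 2.88). The ranges of Atp1b1 and Scn4a overlapped in WT control TA, whereas all other neighbors had separate ranges. Within each WT control library Atp1b1 was above Scn4a, with 122 against 114, 198 against 170 and 191 against 166 FPKM. The order was the same in the libraries labelled skmNrip1-/-, where Atp1b1 and Scn4a had separate ranges. By mean FPKM over the 5 libraries, Fxyd1 stood above 98.9% of the genes tested and Atp1b4 above 29.2%.

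Atp1b1 encodes β1, the most widely expressed β subunit of the pump. Its gene (ENSMUSG00000026576) lies on the minus strand of chromosome 1, from 164437109 to 164458355 on GRCm38. It measured 122, 198 and 191 FPKM in WT control TA, and 247 and 214 FPKM in the libraries labelled skmNrip1-/-. WT control replicate 1 was low, and the step from the highest WT control library to the lowest of the others, 198 to 214 FPKM, was smaller than the range of the WT control libraries. The group means were 170 ± 41.8 (SD, n = 3) and 230.4 ± 23.6 FPKM (SD, n = 2), and the log2 fold change was 0.46 (SE 0.22, 95% interval -0.07 to 0.996, adjusted p = 0.487, limma). Without WT control replicate 1, which also had the highest summed FPKM of skeletal muscle markers (96992 against 74573 or less), the log2 fold change was 0.24. Exons of Nme7 on the opposite strand overlap those of Atp1b1, and the library kit is not stated to keep strand, but Nme7 was listed at 0.867 FPKM or less in every library.

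Atp1b2 encodes β2, also known as the adhesion molecule on glia, which is the β subunit associated with fast glycolytic fibers. Its gene (ENSMUSG00000041329) lies on the minus strand of chromosome 11, from 69599736 to 69605942, and no other annotated gene overlaps it. It measured 63.1, 48.7 and 54.6 FPKM in WT control TA, and 28.7 and 39.0 FPKM in the libraries labelled skmNrip1-/-. All WT control libraries were higher than both others. The group means were 55.5 ± 7.23 (SD, n = 3) and 33.8 ± 7.28 FPKM (SD, n = 2), a ratio of 0.61, and the log2 fold change was -0.72 (SE 0.17, 95% interval -1.13 to -0.31). The unadjusted p was 0.00463 and the adjusted p 0.197 (limma), so this difference did not pass the test. It ranked 286th of the 12148 genes by p. Rescaling to 1 sum of FPKM, which lowered the median log2 fold change over the genes tested to -0.29, moved the log2 fold change of Atp1b2 to -1.02 (adjusted p = 0.0496, limma), which was called, and left it at -0.73 relative to that median. Over all other settings and left-out libraries, the log2 fold change of Atp1b2 stayed below 0 without being called, with adjusted p-values up to 0.699.

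Because Schwann cells also express Atp1b2, their markers were read beside it. The sum of the 8 Schwann cell and nerve markers was 19.0 to 28.3 FPKM in WT control TA and 15.8 and 24.02 FPKM in the libraries labelled skmNrip1-/-. None of the 5 markers tested was called. Among 8 skeletal muscle markers, 3 had both libraries labelled skmNrip1-/- below every WT control library (Acta1, Ckm and Mylpf), a pattern of 14.4% of all genes tested, and none was called, with a summed level of 71048 to 96992 FPKM in WT control TA and 65633 to 67929 FPKM in the libraries labelled skmNrip1-/-. The part of these in the values of Atp1b2 was not tested.

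Atp1b4 encodes a muscle protein of the β-subunit family that in placental mammals is found in the inner nuclear membrane and no longer serves as a pump subunit. Its gene (ENSMUSG00000016327) lies on the plus strand of chromosome X, from 38316184 to 38336769. The WT control libraries held 2.88, 2.45 and 1.61 FPKM of it, against 2.40 and 2.90 FPKM in the libraries labelled skmNrip1-/-. Both of the latter lay within or just above the WT control range. The log2 fold change was 0.22 (SE 0.25, 95% interval -0.39 to 0.83, adjusted p = 0.808, limma), and its sign turned without WT control replicate 3 (-0.013) and on rescaling to a common sum (-0.069), where it was still 0.22 above the median gene. Atp1b4 had the lowest level of the 6 and the widest relative spread in WT control TA, with a coefficient of variation of 27.9% against 5.47% for Clcn1.

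Fxyd1 encodes phospholemman, which lowers the sodium affinity of the pump until it is phosphorylated. Its gene (ENSMUSG00000036570) lies on the minus strand of chromosome 7, from 31051678 to 31057199. Phospholemman mRNA measured 562, 373 and 579 FPKM in WT control TA, and 450.2 and 408 FPKM in the libraries labelled skmNrip1-/-. Both of these lay inside the range of the WT control libraries, in which replicate 2 was the low one. The log2 fold change was -0.21 (SE 0.21, 95% interval -0.71 to 0.29, adjusted p = 0.769, limma). It was -0.51 on rescaling to a common sum, or -0.22 relative to the median gene, and -0.41 without WT control replicate 2. Fxyd1 was not called in either. The 17 annotated transcripts of Fxyd1 are 255 to 668 nucleotides long, and which lengths its FPKM were divided by is not given in the sources used here.

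Partners of these subunits were read from a list of other pump genes. Fxyd6, another pump regulator, was at 28.9, 31.7 and 29.4 FPKM in WT control TA and at 57.4 and 44.4 FPKM in the libraries labelled skmNrip1-/- (log2 fold change 0.75, SE 0.14, adjusted p = 0.110, limma). The WT control libraries were nearly level and both others were higher, but the gene was not called. It had the largest log2 fold change of the 7 pump partners tested. Atp1b3, which encodes β3, had the smallest, with 16.6, 15.3 and 14.5 against 13.3 and 13.1 FPKM (log2 fold change -0.23, adjusted p = 0.477, limma). Of the 11 pump partners in the table, 7 passed the FPKM minimum, none was called in either direction, and their median log2 fold change was 0.19 beside -0.00 over all genes tested.

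Proportions between subunits within 1 library do not depend on the scaling between libraries. Atp1b1 made up 60.6%, 75.5% and 73.5% of the summed FPKM of Atp1b1, Atp1b2 and Atp1b3 in WT control TA, against 85.5% and 80.4% in the libraries labelled skmNrip1-/-. Atp1b2 made up 31.2%, 18.6% and 20.9%, against 9.92% and 14.7%. In all WT control libraries the β1 share was lower and the β2 share higher than in both others. The ratio of Atp1b1 to Atp1b2 was 1.94, 4.06 and 3.51 in WT control TA and 8.62 and 5.48 in the libraries labelled skmNrip1-/-. The gap between the groups, from 4.06 to 5.48, was smaller than the spread within either group. The difference in the mean log2 ratio was 1.18, and it ranged from 0.86, without skmNrip1-/- replicate 1 or WT control replicate 1, to 1.51, without skmNrip1-/- replicate 2. No test was made of these proportions.

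Fxyd1 made up 93.3%, 89.9% and 93.6% of the summed FPKM of the FXYD genes in WT control TA and 87.0% and 88.3% in the libraries labelled skmNrip1-/-. Both of the latter were lower, and the highest of them lay close to WT control replicate 2.

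**Figure D2:**
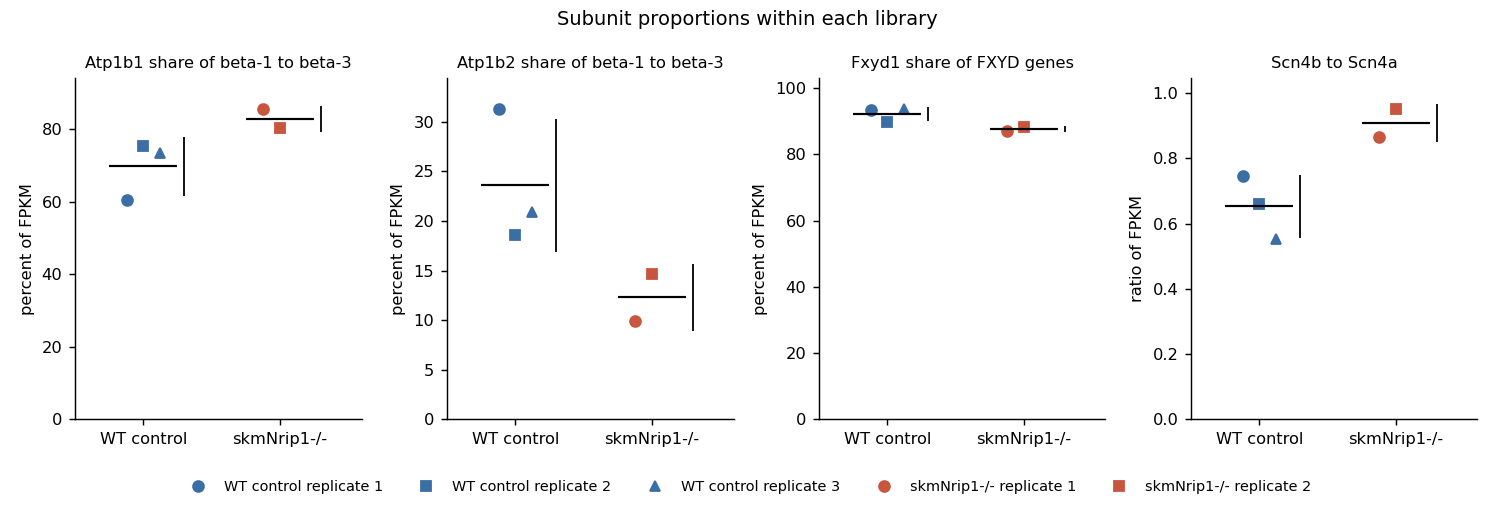
Proportions within each library (vertical axes, each from 0) as percent of FPKM or as ratio of FPKM, for WT control (blue, 3 libraries) and libraries labelled skmNrip1-/- (red, 2 libraries), with horizontal lines at group means and bars of 1 SD to either side. The share of Atp1b1 among β1 to β3 was 60.6% to 75.5% in WT control TA and 80.4% and 85.5% in the others. The groups did not overlap in any of the 4 panels, which were picked from a longer set of proportions. Others of that set overlapped and are not drawn, such as the Clcn1 share of the CLC genes (64.1% to 70.3% against 65.0% and 64.2%). The Atp1b1 and Atp1b2 shares are parts of 1 sum, so these panels are not independent.

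Scn4a (ENSMUSG00000001027) lies on the minus strand of chromosome 11, from 106318592 to 106353288. It measured 114, 170 and 166 FPKM in WT control TA, and 135 and 142 FPKM in the libraries labelled skmNrip1-/-. WT control replicate 1 was the lowest of the 5 libraries, and both libraries labelled skmNrip1-/- lay between it and the other WT control libraries. The log2 fold change was -0.09 (SE 0.19, 95% interval -0.55 to 0.36, adjusted p = 0.895, limma), and it was -0.28 without WT control replicate 1 and 0.0078 without replicate 2. WT control replicate 1 also had the low value of Atp1b1. Its log2 level was 0.57 below the mean of replicates 2 and 3 for Scn4a and 0.67 below it for Atp1b1, and 5.54% and 3.71% of all genes tested deviated further down in that library. Scn4a held 99.2% to 99.5% of the summed FPKM of the sodium channel α subunits in the table.

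Among the auxiliary sodium channel subunits, Scn4b, which encodes β4, was at 84.5, 112 and 92.0 FPKM in WT control TA and at 117 and 134 FPKM in the libraries labelled skmNrip1-/- (log2 fold change 0.39, adjusted p = 0.379, limma). Both of the latter were higher, but the gene was not called. On rescaling to a common sum its log2 fold change was 0.09, where the median over the genes tested was -0.29. The ratio of Scn4b to Scn4a was 0.744, 0.660 and 0.553 in WT control TA and 0.866 and 0.950 in the libraries labelled skmNrip1-/-, without overlap. Of the 13 other sodium channel genes in the table, 6 passed the FPKM minimum, none was called, and their median log2 fold change was -0.09.

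Clcn1 (ENSMUSG00000029862) lies on the plus strand of chromosome 6, from 42286685 to 42315756, and exons of Fam131b on the opposite strand overlap it, listed at 0.171 FPKM or less. WT control TA held 77.9, 74.6 and 69.8 FPKM, against 71.6 and 74.8 FPKM in the libraries labelled skmNrip1-/-. Both of the latter lay inside the WT control range. The log2 fold change was -0.02 (SE 0.10, 95% interval -0.26 to 0.23, adjusted p = 0.973, limma), the narrowest interval of the 6 genes. In linear terms that interval runs from 0.84-fold to 1.17-fold. On rescaling to a common sum, the log2 fold change of Clcn1 was -0.32, or -0.03 relative to the median gene.

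Clcn1 held 64.1% to 70.3% of the summed FPKM of the CLC genes in WT control TA and 65.0% and 64.2% in the libraries labelled skmNrip1-/-. The list of chloride channel and cation-chloride cotransporter genes had 13 members over the FPKM minimum of 18 in the table. None was called, and their median log2 fold change was 0.06. Clcn3, an endosomal chloride-proton exchanger, had the largest, with 7.89, 11.6 and 9.54 FPKM in WT control TA and 13.4 and 15.0 FPKM in the libraries labelled skmNrip1-/- (log2 fold change 0.56, SE 0.17, adjusted p = 0.293, limma). Clcn6, a late endosomal exchanger, had the smallest (log2 fold change -0.26, adjusted p = 0.594, limma).

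Over all 3 lists, 26 genes were tested and none was called in either direction. At an unadjusted p of 0.05 or less, 4 were higher, among them Fxyd6, Scn4b and Clcn3, and 1 was lower, which is 4 and 1 of 26 beside the 6.57% and 5.33% of all genes tested. Both libraries labelled skmNrip1-/- lay above every WT control library for 4 of the 26 and below for 5, shares near the 15.8% and 14.4% of all genes tested. The median log2 fold change of the 26 was 0.04, and that of the 6 genes was -0.06.

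**Figure D3:**
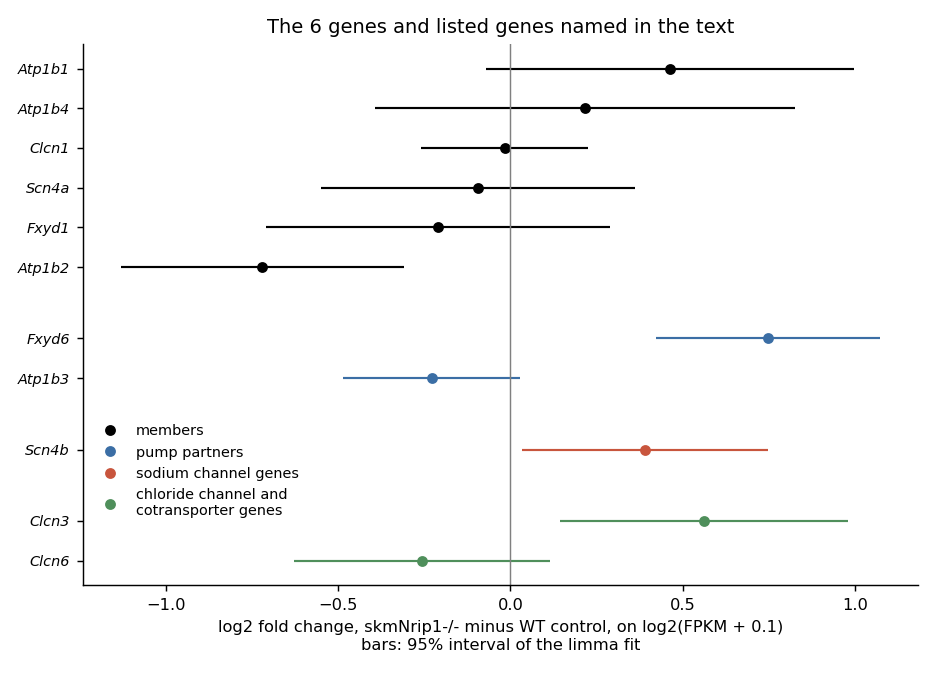
Log2 fold change (horizontal axis, skmNrip1-/- minus WT control on log2(FPKM + 0.1)) with the 95% interval of the limma fit for the 6 genes (black) and the named genes of the pump (blue), sodium channel (red) and chloride lists (green). Of the 6, Atp1b2 alone has an interval (-1.13 to -0.31) that leaves out 0, before adjustment for the genes tested.

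For each of the 6 genes, the genes with the most similar pattern were found as those with the smallest root mean square difference of centered log2 values over the 5 libraries. For Atp1b1 they were Stat3 (0.022), Sdha, which encodes a succinate dehydrogenase subunit (0.041), and Bloc1s6 (0.047), where the median over all other genes tested was 0.38. Sdha was at 583, 1009 and 947 FPKM in WT control TA and at 1174 and 1074 FPKM in the libraries labelled skmNrip1-/-, with the same low WT control replicate 1 as Atp1b1. For Atp1b2 they were Fam181b (0.066), Rmi2 (0.067) and the Aldoa entry ENSMUSG00000114515 (0.069), beside a median of 0.43. That Aldoa entry, which carries the name of the glycolytic enzyme aldolase A, was at 36.5, 32.3 and 32.3 FPKM against 17.6 and 23.2 FPKM. The values of any other entry of that name are not given here, so these are not a reading of aldolase A. Sdha and this entry do not stand for the other neighbors, whose values are not printed.

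The genes nearest to Scn4a were Adcy9 (0.015), Tex261 (0.024) and Nectin3 (0.039), beside a median of 0.28. Those nearest to Fxyd1 were 0610010K14Rik (0.022), Lmo1 (0.040) and Mrpl57 (0.041), beside a median of 0.31. Atp1b4 was nearest to Zfp974 (0.043), Pan3 (0.074) and Nckipsd (0.089), beside 0.34, and Clcn1 to Zfp422 (0.0094), Ncbp1 (0.012) and Ppp1r2 (0.012), beside 0.18. With 5 libraries, some of the 12148 genes will lie close to any pattern, so these names are a description.

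Fiber type markers were read beside the 6 genes, since β1 and β2 differ between fiber types. The sum of 8 markers of slow and type 2A fibers was 335, 481 and 1418 FPKM in WT control TA and 484 and 530 FPKM in the libraries labelled skmNrip1-/-. WT control replicate 3 stood apart through Myh2, the type 2A myosin heavy chain, at 1102 FPKM against 223 to 406 FPKM in the other 4 libraries. The difference of Atp1b1 was 0.56 and that of Atp1b2 -0.73 on the log2 scale without that library. Of the 8 markers, none was called. Myl2 was at 42.1 and 33.6 FPKM in the libraries labelled skmNrip1-/- against 9.68 FPKM or less, and Myl3 at 54.1 and 71.3 FPKM against 89.6 FPKM or more. The part of fiber type in the values of the 6 genes was not tested. The sum of the 5 red blood cell markers was 511 to 764 FPKM in WT control TA and 827 to 996 FPKM in the libraries labelled skmNrip1-/-, with 4 of the 5 above every WT control library, a pattern of 15.8% of all genes tested, and none called. On the lists for endothelium, smooth muscle, fibroblasts, leukocytes, fat cells and satellite cells, no gene tested was called and the summed levels of the groups overlapped.

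**Figure D4:**
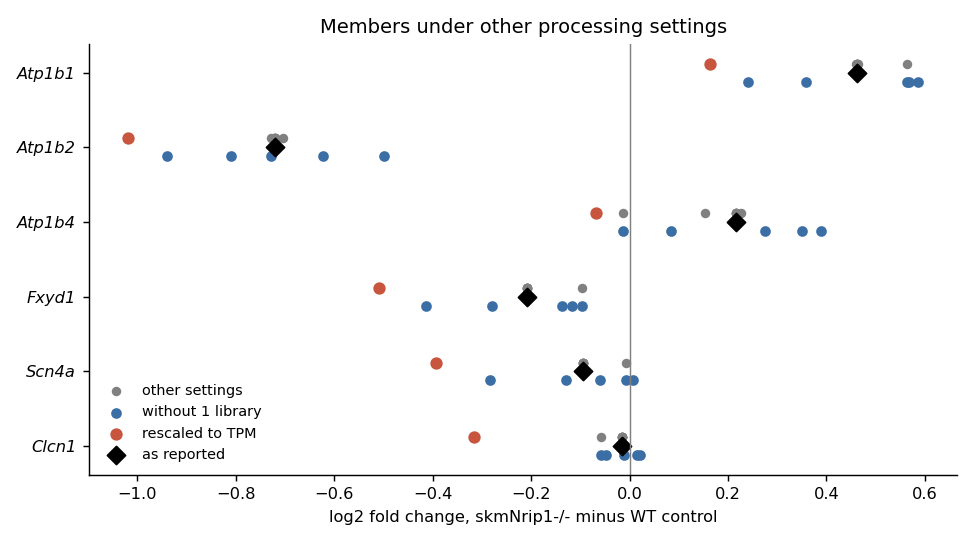
Log2 fold change (horizontal axis, skmNrip1-/- minus WT control) of the 6 genes as reported (black), without 1 library at a time (blue), rescaled to a common sum of FPKM (red, marked TPM) and under the other settings (gray). Atp1b1 stayed above 0 (0.16 to 0.59) and Atp1b2 and Fxyd1 below 0 (-1.02 to -0.50 and -0.51 to -0.10), while Atp1b4, Scn4a and Clcn1 took both signs.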

How the data were processed

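TA muscle RNA was sequenced as 150-bp paired-end reads, and the authors quantified the reads with Salmon 1.10.2 on the mm10 reference and summarized them to genes with tximport. The deposited values are FPKM for each gene and library, already scaled between libraries, since the median ratio to a reference made of the geometric mean of every gene is equal in all 5. How the FPKM were computed and the annotation release are not given in the sources used here. The deposited table also holds the log2 fold changes and adjusted p-values of the authors' DESeq2 1.44.0 comparison, which were not used. Libraries were grouped by their labels.

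The groups were compared by limma 3.58.1 (R 4.3.3, eBayes with trend) on log2(FPKM + 0.1), a scale that understates the change of low genes. Benjamini-Hochberg adjustment ran over the 12148 genes whose mean reached 0.5 FPKM. The step was tested on simulated data. The labels do not tie libraries to mice, so p-values measure the spread between these libraries, which may be technical. Alternatives were other pseudocounts (1, 0.01), FPKM minimums (none, 1), scalings, variance models, call thresholds, a block for the replicate number, and 1 library left out at a time. Positions come from GENCODE M21 (GRCm38), which holds 16996 of the gene IDs. Python 3.11.15, pandas 2.3.3 and matplotlib 3.10.9 handled and drew the tables.

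The members, lists and tests were chosen with earlier results of these data known. Named were the 6 genes, Nrip1, direct partners, the genes with the largest rise and fall on each list and any called, and the 3 genes nearest to each of the 6 in pattern. Marker genes are named where they stood apart or are abundant. The overlapping genes Nme7 and Fam131b were named after the annotation was read, and Scn3b after its values were seen. Some genes that this rule names are not reported here.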

Additional observations from a re-analysis of the deposited data

How the results depend on the processing

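None of the 6 genes was called under any setting except Atp1b2 on rescaling to a common sum (log2 fold change -1.02), which also gave 29 genes called higher and 59 lower in all against 45 and 10, and 1 called gene among the 26 of the lists. That rescaling set Atp1b4 at -0.069. With the replicate number as a block, Atp1b4 was at -0.013, Nrip1 at 1.98 and no longer called, and 18 genes were called higher and 4 lower. The block changed no call of the 6 genes. The labels share only 2 numbers between the groups, and the numbers were not taken as pairs because the study does not do so. Same-numbered libraries correlated at 0.065 and 0.095 in their deviations from the group means. The deviations of the 2 libraries labelled skmNrip1-/- mirror each other by construction, so these correlations cannot decide on pairing. Since WT control replicate 3 has no partner, the block gives the same fold changes as leaving it out. Without the trend, Nrip1 was at 1.94 and not called (22 genes higher, 3 lower), and at an adjusted p of 0.01 or less it was not called (1.94; 14 higher, 3 lower). Leaving out each library in turn gave 0.24 to 0.59 for Atp1b1, -0.94 to -0.50 for Atp1b2, -0.013 to 0.39 for Atp1b4, -0.41 to -0.10 for Fxyd1, -0.28 to 0.0078 for Scn4a, -0.058 to 0.020 for Clcn1 and 1.74 to 2.09 for Nrip1, which lost its call without WT control replicate 3 or either library labelled skmNrip1-/-. Genes called higher then numbered 6 (without skmNrip1-/- replicate 2) to 55 (without WT control replicate 2) and lower 3 (without WT control replicate 1 or 3 or skmNrip1-/- replicate 2) to 16 (without WT control replicate 2); 8 were higher without skmNrip1-/- replicate 1, 19 without WT control replicate 3 and 27 without WT control replicate 1. The cause of these changes was not tested, beyond there being fewer libraries. An arm left with 1 library is assumed to vary like the other group. With 2 libraries in a group, differences of the size seen for Atp1b1 were within the error of the fit.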

Other observations

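Among the listed genes under the FPKM minimum, Scn3b, which encodes the sodium channel subunit β3, had the smallest unadjusted p when no minimum was set. WT control TA held 0.550, 0.483 and 0.571 FPKM, against 0.213 and 0.179 FPKM in the libraries labelled skmNrip1-/-. All WT control libraries were higher, with a log2 fold change of -1.10 (SE 0.21, unadjusted p = 0.00172, adjusted p = 0.158 over 17015 genes, limma), which was not called. It was singled out after its values were seen.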
